A study of Daphnia magna with 24 samples.

Results

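Water collected at the downstream 2 site of Greenhorn Mine, California, was compared with water collected upstream of the mine by its effect on RNA levels in Daphnia magna, a freshwater crustacean. The members were the arrays labelled downstream 2 and those labelled upstream, 12 of the 24 arrays of the series. Both arrays of an exposure carry the same RNA pair with the dyes exchanged and were averaged, which left 3 downstream 2 exposures and 3 upstream exposures. In both groups the animals were adult females 14 to 16 days old from one genetically homogeneous stock, held for 24 h at 23.5 °C, with 10 to 15 whole animals pooled per exposure. By their labels the groups differ in the water alone. On every array the exposed RNA stands against RNA of animals that were not exposed and stayed in COMBO, a defined culture medium. The other 12 arrays hold water from the mine drainage entry and from a downstream 1 position, and they served to estimate the spread.

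Copper contamination differed between the sites, per the design text, which gives no concentrations. Copper is an essential metal, needed by cytochrome oxidase and by copper/zinc superoxide dismutase. In excess it disturbs sodium uptake at the gills of freshwater crustaceans, gives rise to reactive oxygen species and binds to protein thiols, and metallothioneins are the proteins best known for holding it. Daphnia is used to test waters because it filters them constantly and because its females reproduce without mating, so that animals of a stock are genetically alike. The features of this array carry plate-style IDs only. None of them matched the table of Daphnia genes (0 of 7680), so features are described by ID and by their values, and no gene, pathway or sequence is named.

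Values are log ratios between exposed and control RNA, taken as log2, after centring each array on its median. No source used here names the base, so folds hold only if it is 2. A positive value likely means more RNA in exposed animals, since the second channel holds the exposed RNA and the design text sets each field exposure against the control. The sign itself is not stated. Both arrays of each exposure correlated positively (lowest r 0.149, in upstream exposure 3, and highest 0.772, in downstream 2 exposure 3). The dye parts of the 6 exposures (0.5 times the difference between both arrays) also correlated positively in all 15 pairs (r from 0.280 to 0.566), so these arrays run one way. Between exposures, arrays with the same dye on the exposed RNA had correlations between -0.255 and 0.648 (30 pairs). Since RNA came from whole animals, fewer cells of a type and less RNA per cell cannot be told apart.

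The upstream exposures had little in common across features. Their 3 pairwise correlations were 0.118, -0.170 and -0.289, against 0.481, 0.605 and 0.438 for the downstream 2 exposures. The SD of log ratios across features, a measure of how far the whole profile stands from control, was 0.563, 0.552 and 0.241 in upstream exposures 1, 2 and 3. It was 0.680, 0.561 and 0.399 in downstream 2 exposures 1, 2 and 3. The third exposure was thus the quietest at both sites, and the groups overlapped. The means were 0.452 ± 0.183 upstream and 0.546 ± 0.141 at downstream 2 (SD, n = 3). The difference of 0.0947 did not pass (exact permutation p = 0.6, two-sided, smallest possible p 0.1). Paired by exposure number it was positive in 3 of 3 pairs, by 0.117, 0.00852 and 0.158, with an exact sign-flip p of 0.25, the smallest that 3 pairs allow. Without upstream exposure 3 it turned to -0.0109, and without downstream 2 exposure 1 it fell to 0.0281.

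Between downstream 2 and upstream, 97 of 7388 tested features differed at a limma adjusted p under 0.05, which is 1.31% of those tested. The ratio was higher at downstream 2 for 40 features (0.541%) and lower for 57 (0.772%). Positive differences had a median of 1.54 and negative ones a median of -1.22 on the log2 scale. Sizes ran from 0.40 to 3.49, and 78 of the 97 exceeded 1. Among the positive features 13 exceeded 2, and among the negative features 7 lay below -2. At an unadjusted p under 0.05 there were 813 features (11%). The exposures of both sites did not overlap for any of the 97, against 12.8% of all tested features without overlap.

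**Figure D1:**
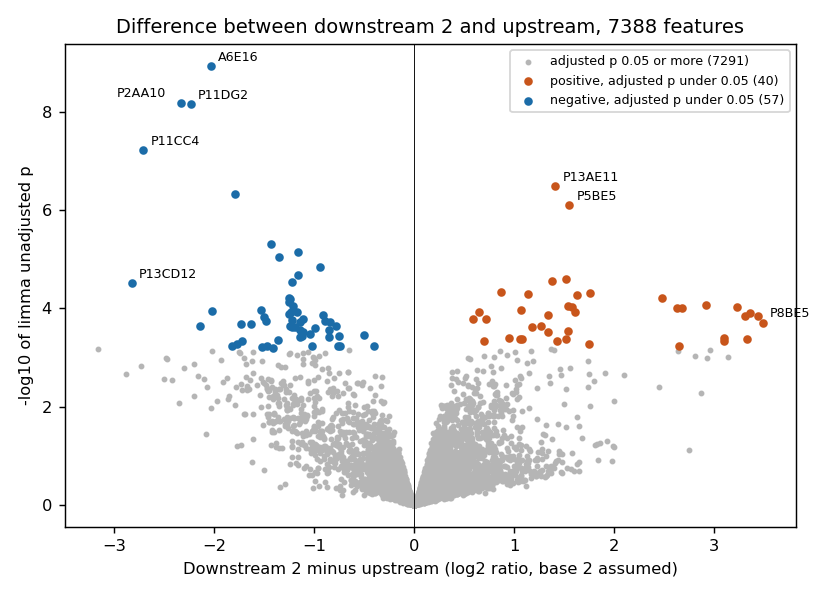
Each point is 1 of 7388 features, with the difference between the site means (downstream 2 minus upstream, log2 ratio) on the x axis and the -log10 of limma's unadjusted p on the y axis. Orange marks the 40 positive and blue the 57 negative features with an adjusted p under 0.05. A6E16, P2AA10, P11DG2 and P11CC4 stand highest on the negative side, while the features with the largest positive differences, such as P8BE5, lie close to the threshold.

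For all 97 features the site mean lay farther from control at downstream 2 than upstream. Their median absolute mean was 0.144 upstream and 1.31 at downstream 2. Upstream means lay between -0.51 and 0.48. Features were chosen for the distance between both sites, so these levels describe the choice. The median SD between exposures of the 97 was 0.181 upstream and 0.266 at downstream 2, while over all tested features it was 0.259 and 0.205. The test that chose the 97 uses these spreads, so they too describe the choice.

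The count fell whichever single exposure was left out, in fits that also had fewer degrees of freedom. Leaving out upstream exposure 1, 2 or 3 gave 11, 11 or 48 features. Leaving out downstream 2 exposure 1, 2 or 3 gave 16, 41 or 60. Of the 97 features, 10 passed in all 6 of these fits, 56 in 1 to 5 of them and 31 in none. Same-numbered exposures of both sites deviated together (r = 0.434, 0.474 and 0.248), so the numbers were treated as pairs in other fits. With both sites fitted alone and the number as a fixed replicate block, limma called 0 features, with 972 at an unadjusted p under 0.05 and 2 residual degrees of freedom. With the number as a random replicate block 88 features passed, 64 of them among the 97. With all 12 exposures and a fixed replicate block 100 passed, 77 of them among the 97. A block leaves the difference of these complete features as it is and changes only its error, so these fits bear on the calls and not on the direction.

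**Figure D2:**
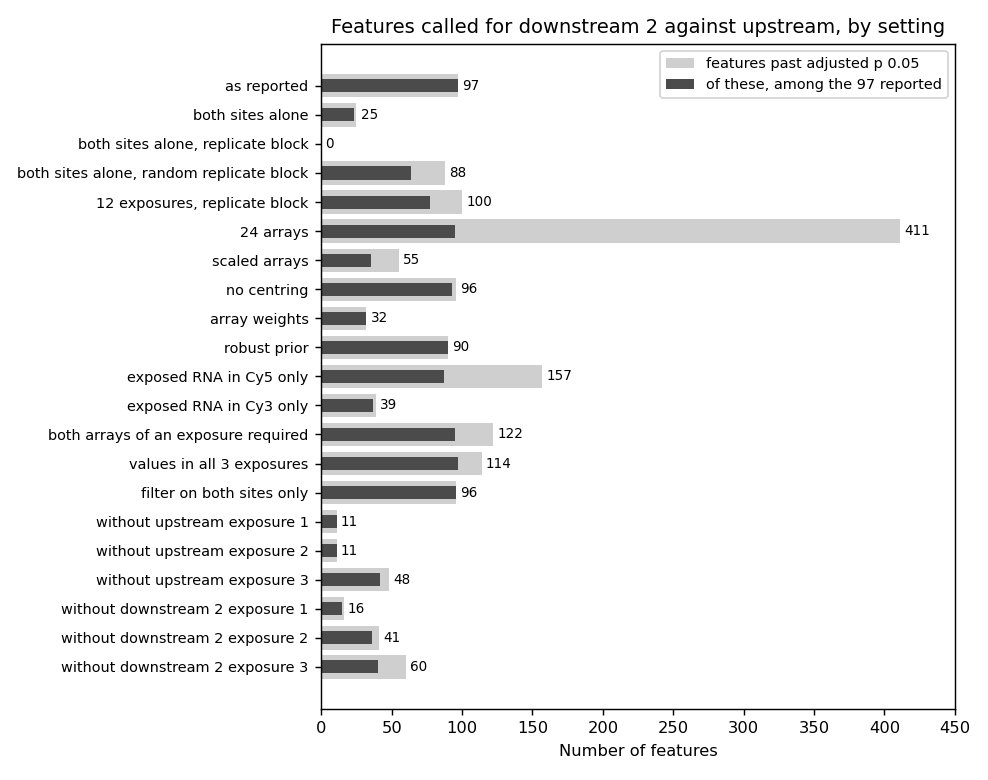
Pale bars give the number of features (x axis) past an adjusted p of 0.05 in each setting (y axis), and dark bars those among the 97 reported. Counts run from 0 with both sites alone and a replicate block to 411 with all 24 arrays, where both arrays of an exposure entered singly.

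The lowest p-values were on the negative side, in features whose exposures lay close together. A6E16 stood at -0.002, 0.05 and 0.01 in upstream exposures 1, 2 and 3, and at -1.98, -2.10 and -1.96 in those of downstream 2. Both sets were tight and far apart, with a difference of -2.03 (SE 0.09, limma adjusted p 8.67e-06), a 4.09-fold lower ratio. On single upstream arrays A6E16 differed by dye, which averaging evens out. Upstream it was 0.33, 0.32 and 0.17 with exposed RNA in Cy5, and -0.34, -0.22 and -0.14 with exposed RNA in Cy3. At downstream 2 the 6 arrays lay between -2.46 and -1.74, below all upstream arrays.

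P11DG2 had the narrowest set at downstream 2. It was at 0.08, 0.15 and 0.15 upstream and at -2.11, -2.12 and -2.10 at downstream 2. The groups were separated by many times their spread, and the difference was -2.24 (SE 0.12, limma adjusted p 1.74e-05). P2AA10 was at 0.12, 0.35 and 0.18 upstream and at -1.98, -2.17 and -2.19 at downstream 2, a difference of -2.33 (SE 0.13, adjusted p 1.74e-05). P11CC4 was at 0.005, 0.27 and 0.25 upstream and at -2.29, -2.79 and -2.54 at downstream 2, a difference of -2.71 (SE 0.19, adjusted p 0.000113). In each of these 3 features the upstream exposures were all above 0 and the downstream 2 exposures all below. Without each exposure in turn, the difference ranged from -2.06 to -1.99 for A6E16, from -2.26 to -2.22 for P11DG2, from -2.39 to -2.26 for P2AA10 and from -2.84 to -2.59 for P11CC4, and all 4 passed in all 6 fits.

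A further 6 features passed without each exposure in turn. A6E9 was at 0.35, 0.31 and 0.06 upstream and at -1.79, -1.32 and -1.54 at downstream 2, a difference of -1.79 (SE 0.15, limma adjusted p 0.000594). A6B4 differed by -1.44 (SE 0.16, adjusted p 0.00453), P10DD3 by -1.35 (SE 0.16, adjusted p 0.00657) and A6B18 by -1.16 (SE 0.14, adjusted p 0.00585). All 4 were lower at downstream 2 in every exposure. With arrays scaled to equal spread A6B4, P10DD3 and A6B18 lost their calls (limma adjusted p 0.0608, 0.0859 and 0.119). P10DD3 and A6B18 also lost theirs with both sites fitted alone (adjusted p 0.0875 each). P10DD3 averaged -0.23, -0.18 and -0.24 upstream (limma unadjusted p 0.0872 against control). Its upstream arrays were at 0.008, -0.002 and 0.05 with exposed RNA in Cy5, and at -0.47, -0.36 and -0.53 with Cy3. The other 2 were positive. P5BE5 rose from -0.09, 0.17 and 0.003 upstream to 1.84, 1.43 and 1.47 at downstream 2, a difference of 1.55 (SE 0.14, adjusted p 0.000836). P13AE11 rose from 0.08, -0.13 and 0.07 to 1.57, 1.45 and 1.25, a difference of 1.41 (SE 0.12, adjusted p 0.000481). P5BE5 and P13AE11 were thus the positive features whose calls did not rest on any one of the 6 exposures.

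The largest positive differences belonged to features near control upstream and far above it at downstream 2. P8BE5 was at 0.20, 0.22 and 0.13 upstream and at 4.52, 2.93 and 3.57 at downstream 2. The lowest downstream 2 exposure was far above the highest upstream one, and the difference was 3.49 (SE 0.60, limma adjusted p 0.0267), an 11.2-fold higher ratio. P3CB12 was at 0.17, 0.23 and 0.22 upstream and at 4.26, 3.14 and 3.55 at downstream 2, a difference of 3.44 (SE 0.57, adjusted p 0.0245). P9CF4 followed at 3.36, P11CH10 at 3.33, P8CB10 at 3.31, P1CB2 at 3.23, P12DD11 at 3.10 and P10DH11 at 3.10, with SEs from 0.51 to 0.64. In all 8 features downstream 2 exposure 1 was the highest and exposure 2 the lowest. P1CB2, P12DD11 and P10DH11 had their highest upstream value in exposure 3, at 0.61, 0.84 and 1.02. With exposed RNA in Cy5 and Cy3, that exposure gave 0.63 and 0.60 for P1CB2. It gave 0.23 and 1.45 for P12DD11, and 0.19 and 1.84 for P10DH11, so there the high value was that of the Cy3 array. The arrays of P1CB2 disagreed in upstream exposure 1, at 0.57 with Cy5 and -1.07 with Cy3. In upstream exposure 2 they were at -0.07 and 0.52. P10DH11 also had no Cy5 value in upstream exposure 1, and lost its call where both arrays were required (limma adjusted p 0.0835).

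In each of these 8 features the entry exposures, which share the estimate of the spread, had the widest SD of the 4 sites (1.05 to 1.24). P3CB12 had an SD between exposures of 0.03 upstream and 0.57 at downstream 2, against 1.18 at the entry and 0.82 at downstream 1. With both sites fitted alone the adjusted p of the 8 features ran from 0.0148 to 0.0666, and P10DH11 lost its call (0.0666). With the random replicate block it ran from 0.0049 to 0.018, and with the fixed replicate block it was 0.0972 for all 8. Without 1 exposure the differences of the 8 features lay between 2.79 and 3.86, but most calls were lost. P3CB12 (3.14 to 3.70), P11CH10 (3.06 to 3.67), P8CB10 (3.08 to 3.54), P12DD11 (2.86 to 3.44) and P10DH11 (2.79 to 3.44) passed in none of the 6 fits. P8BE5 (3.07 to 3.86) and P9CF4 (3.12 to 3.64) passed only without downstream 2 exposure 2, and P1CB2 (3.00 to 3.44) only without upstream exposure 3. With arrays scaled to equal spread none of the 8 passed (adjusted p 0.119 to 0.203).

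The other large negative differences had wider exposures. P13CD12 was at 0.29, 0.81 and -0.27 upstream and at -3.11, -1.93 and -2.59 at downstream 2, a difference of -2.82 (SE 0.39, limma adjusted p 0.0142). P5DC4 was at 0.07, 0.55 and 0.02 upstream and at -2.57, -2.19 and -1.02 at downstream 2, a difference of -2.14 (SE 0.38, adjusted p 0.0283). P6DD8 differed by -2.02 (SE 0.33) and P9CB2 by -1.82 (SE 0.37). In all 4 the highest upstream value was that of exposure 2. P13CD12 lost its call where upstream exposure 1 (-2.82), upstream exposure 2 (-2.56) or downstream 2 exposure 1 (-2.54) was left out. P6DD8 (-2.26 to -1.81) passed only where upstream exposure 3 (-2.26) or downstream 2 exposure 2 (-2.17) was left out. P5DC4 (-2.59 to -1.82) and P9CB2 (-2.19 to -1.60) passed only without downstream 2 exposure 3.

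**Figure D3:**
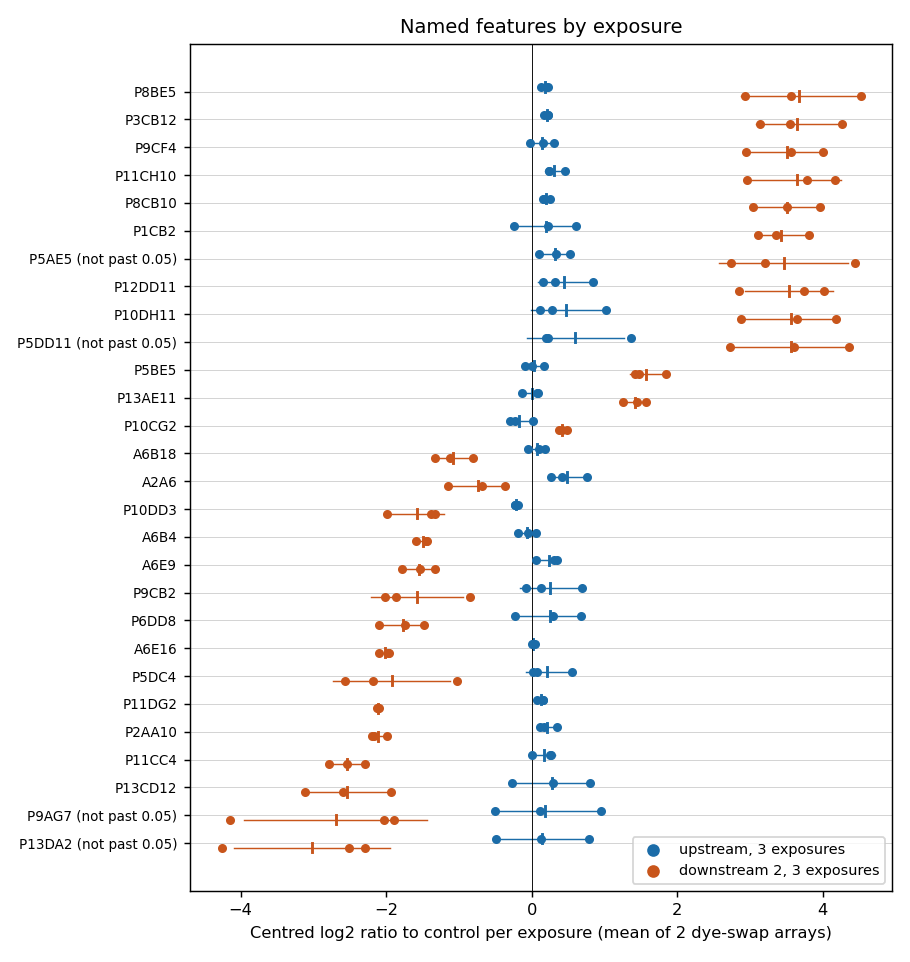
Each row is a named feature, with blue for upstream and orange for downstream 2. Each point is the centred log2 ratio to control of 1 exposure (x axis), the mean of its 2 dye-swap arrays. Where 1 array had no value, as for P10DH11 in upstream exposure 1, the point is the other array alone. Vertical ticks are the means of 3 exposures and horizontal lines the SD. The upstream points lie between -0.50 and 1.37, while the downstream 2 points lie between 2.73 and 4.52 for the 10 rows at the top and below 0 for the 15 rows at the bottom.

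The site means had opposite signs for 46 of the 97 features, against 42.1% of all tested features. Upstream, 4 of the 97 had an unadjusted p under 0.05 against control, where 6.5% of all tested features had one and 0 of 7388 (0%) passed the adjusted threshold. Nothing is read from these shares, and the features below are given for their values. A2A6 was at 0.75, 0.42 and 0.27 upstream and at -1.15, -0.37 and -0.69 at downstream 2. All upstream exposures were above control and all downstream 2 exposures below it, with a difference of -1.22 (SE 0.22, limma adjusted p 0.0284). P10CG2 was at -0.30, -0.23 and 0.01 upstream and at 0.48, 0.38 and 0.41 at downstream 2, a difference of 0.59 (SE 0.10, adjusted p 0.0258). Its downstream 2 exposures lay close together, and upstream exposures 1 and 2 lay below control. A2A6 (-1.40 to -1.01) passed only without downstream 2 exposure 2, and P10CG2 (0.53 to 0.68) only without upstream exposure 3. P2AC4, chosen after its values were seen, had the smallest difference of the 97. It was at 0.18, 0.09 and 0.21 upstream and at -0.25, -0.28 and -0.20 at downstream 2, a difference of -0.40 (SE 0.08, adjusted p 0.0466), and passed in none of the 6 fits without 1 exposure (-0.44 to -0.38).

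Many of the 97 features shared a profile over the 12 exposures of all 4 sites. Average-linkage clustering at an average correlation of 0.95 put 59 of them into 9 groups of at least 3 features. These groups were made after the values were seen and are a description, with no test, and group members outside the rule for naming were likewise chosen after their values were seen. The correlations rest on 12 points of shared RNA pairs. Whether features of a group come from one gene was not tested, since no feature sequences were used here. The 38 features outside the groups had differences from 0.59 to 2.48 (21 positive) and from -1.48 to -0.40 (17 negative).

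The largest group held 15 negative features, among them P4AA10, P12BF5, P4BA10 and P9DG10, with pairwise correlations of at least 0.966. Their differences ran only from -1.26 to -0.99. The medians of the 15 were -0.15, 0.19 and -0.15 in upstream exposures 1, 2 and 3, and -1.16, -1.11 and -1.37 in those of downstream 2. Upstream exposure 2 was thus the highest for this group and downstream 2 exposure 3 the lowest. The group's feature means had medians of -1.26 at the entry and -1.19 at downstream 1, beside -1.21 at downstream 2. All 15 passed with either the random block or the 12-exposure block, 9 passed in none of the 6 fits without 1 exposure, and 0 passed with scaled arrays.

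The second group held 13 positive features, the 8 above together with P3AD8, P1AD12, P10DA1, P13DE11 and P10CE10. Differences ran from 1.76 for P10CE10 to 3.49 for P8BE5, with pairwise correlations of at least 0.967. Medians of the group were 0.20, 0.22 and 0.20 upstream and 3.96, 2.87 and 3.51 at downstream 2. The medians of the feature means were 3.64 at the entry and 3.24 at downstream 1, beside 3.50 at downstream 2. A further 9 tested features followed the group's median profile at a correlation of at least 0.95 without passing, with differences from 1.17 to 3.15 and adjusted p from 0.0517 to 0.126. The 13 thus do not cover all features of this profile. All 13 passed with the random block, 9 with the 12-exposure block, 7 passed in none of the 6 fits without 1 exposure, and 0 passed with scaled arrays.

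The group of A6E16, P11DG2, P2AA10 and P11CC4 was the tightest, with correlations of at least 0.987. Its median profile was followed, at a correlation of at least 0.95, by 2 other called features, A6B4 and A6E9, and by 0 of the features that did not pass. Its feature means had medians of 0.15 for upstream, -1.70 for the entry, -1.88 for downstream 1 and -2.11 for downstream 2. All 4 features passed with scaled arrays, with array weights and under both the random and the 12-exposure block. A group of 6 positive features, A2A14, A2A15, A2B11, A6D10, P13AD1 and P8BG4, had medians of 0.10, -0.02 and -0.05 upstream and 1.85, 1.78 and 1.09 at downstream 2. Downstream 2 exposure 3 was the lowest of its site for this group. All 6 passed with scaled arrays, 5 with the random block and 0 with array weights.

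The remaining 5 groups were negative and held 21 features. A group of 6 with P13CD12, P6DD8 and A6E9 ran from -2.82 to -0.86. Another group of 6 with P5DC4 and P9CB2 ran from -2.14 to -1.36, with medians of 0.05, 0.55 and 0.04 upstream and -2.05, -1.71 and -0.86 at downstream 2. In that group upstream exposure 2 was the highest, and downstream 2 exposure 3 lay nearest to control. Its profile was shared by 20 tested features that did not pass, with differences from -1.93 to -0.65 and adjusted p from 0.0527 to 0.151. Of its 6 features 0 passed with the random block and 0 with array weights, and 6 passed with scaled arrays. The last 3 groups, of 3 features each, had median differences of -1.63, -1.19 and -0.91.

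**Figure D4:**
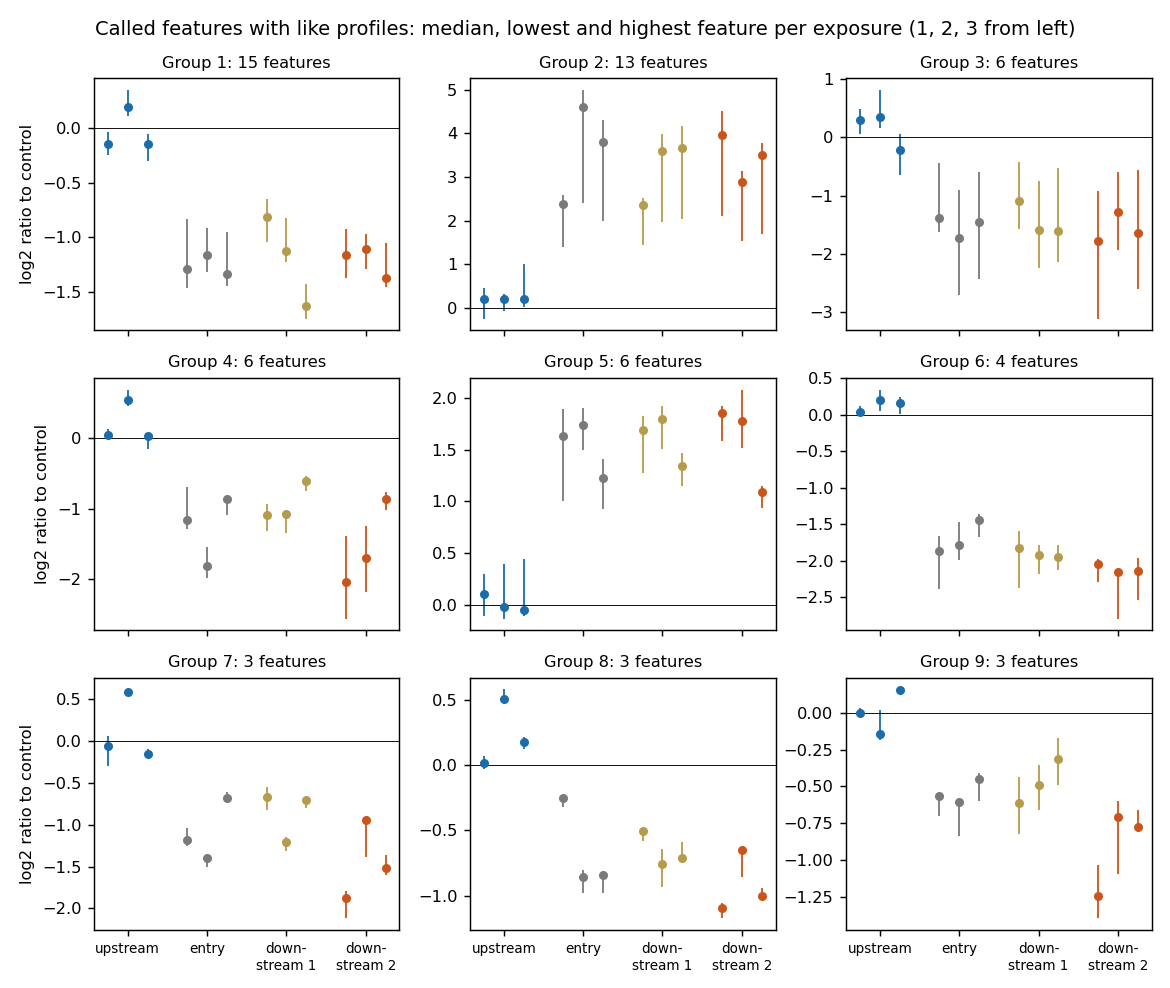
Each panel is a group of features with like profiles, and each point is the median log2 ratio to control of the group's features in 1 exposure, with a line from the lowest to the highest feature. The exposures run 1, 2, 3 from left within upstream, entry, downstream 1 and downstream 2. Upstream medians lie between -0.22 and 0.58 in the 9 panels, and the medians of the entry and of both downstream sites lie on one side of it.

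The 97 features were also compared between downstream 2 and the entry, and between downstream 2 and downstream 1. A missing call there does not show that values were alike. None of the 97 differed between downstream 2 and the entry at an adjusted p under 0.05 (lowest 0.81), and limma called 0 of 7388 features (0%) in that comparison, with 253 (3.42%) at an unadjusted p under 0.05. Nor did any differ between downstream 2 and downstream 1 (0 of 7388, 0%, with 262 or 3.55% at an unadjusted p under 0.05). At an unadjusted p under 0.05 these numbers were 14 and 20 of the 97. Downstream 2 values chose these features, so nothing is read from those shares. P10DA12, chosen after its values were seen, was at 0.03, 0.07 and 0.01 upstream and at 2.80, 1.04 and 1.52 at downstream 2, with 0.91 ± 0.13 at the entry and 0.38 ± 0.06 at downstream 1 (SD, n = 3). Its difference of 1.75 from upstream passed (SE 0.35, limma adjusted p 0.0451), though only without downstream 2 exposure 1 or 2 (1.24 and 2.12) when 1 exposure was left out. The difference of P10DA12 between downstream 2 and downstream 1 had an adjusted p of 0.999.

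The 97 features were called on the mean of both dye orientations, so the values of each orientation describe the choice and are no check of it. Values on all 12 arrays were present for 88 of the 97, and the others were compared on fewer. With exposed RNA in Cy5 alone, the arrays of one site did not overlap those of the other for 97 of them (16.1% of all tested features). With exposed RNA in Cy3 alone this held for 92 (12.2% of all tested). Taking all arrays singly, 86 features had no overlap between the arrays of both sites (4.3% of all tested). The Cy5 arrays gave a median of 105% of the averaged difference (from 86.0% to 141%) and the Cy3 arrays 94.6% (from 59.5% to 111%). Differences were thus somewhat larger with exposed RNA in Cy5. A3J18 had the widest gap between orientations, at 2.98 with Cy5 and 1.63 with Cy3, followed by P5AB6 at 1.51 and 0.64, both chosen after their values were seen. The averaged difference of A3J18, 2.48, is not the mean of its 2 orientations. At least 1 of its arrays thus lacks a value, and its gap is not between dyes alone, since the orientations rest on different exposures. Fitted on one orientation, 157 features passed with Cy5 and 39 with Cy3, of which 87 and 37 were among the 97.

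**Figure D5:**
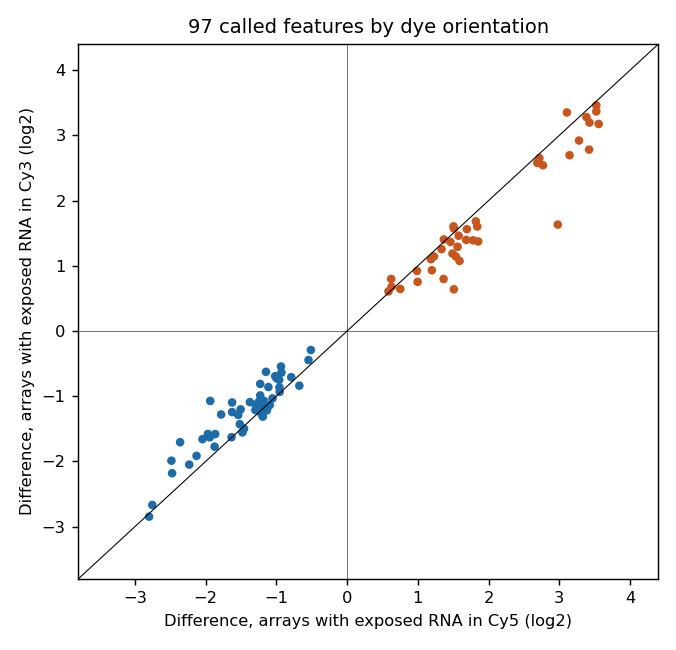
Each point is 1 of the 97 features, with its difference between downstream 2 and upstream (log2) on arrays with exposed RNA in Cy5 (x axis) and on arrays with exposed RNA in Cy3 (y axis), and the line marks equal values. All points have the same sign on both axes. A3J18 (2.98 and 1.63), whose orientations rest on different exposures, lies farthest from the line.

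IDs starting with P held 79 of 4936 tested features (1.6%), and those starting with A held 18 of 2452 (0.734%). P10D IDs held 9 of 96 (9.38%), with 4 positive and 5 negative features. P10DA12, P10DB9 and P10DD3 lay in none of the groups above, and the others were spread over several. A6 IDs held 9 of 380 (2.37%), of which 8 were negative. The IDs look like plate and well positions, which is not stated in the sources used here, and the placement was not tested.

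The 2 largest differences in each direction that did not pass had SDs from 0.82 to 1.26 between downstream 2 exposures. P13DA2 had the largest negative one, -3.16 (SE 0.65, limma adjusted p 0.0502), at -0.49, 0.79 and 0.13 upstream and -4.26, -2.51 and -2.29 at downstream 2. P9AG7 was at -0.50, 0.95 and 0.12 upstream and at -4.15, -2.04 and -1.90 at downstream 2, a difference of -2.88 (SE 0.70, adjusted p 0.0952). In both, downstream 2 exposure 1 was far below the other two. P5AE5 differed by 3.15 (SE 0.68, adjusted p 0.0588) and P5DD11 by 2.97 (SE 0.61, adjusted p 0.0517). P5DD11 was at 1.37 in upstream exposure 3 and at 0.23 and 0.20 in the others. The SD of P5AE5 was 0.21 upstream, against 1.27 at the entry and 0.95 at downstream 1. For P13DA2, P5AE5, P5DD11 and P9AG7 the random replicate block gave an adjusted p of 0.0371, 0.0193, 0.0444 and 0.0667. The fixed replicate block on both sites gave 0.0972, 0.0972, 0.142 and 0.103, and the 12-exposure block 0.069, 0.0951, 0.0645 and 0.123. In all, 385 features exceeded 1 in size without passing, and for 229 of them the exposures of both sites did not overlap. For the median feature the 95% interval, not adjusted for the number of tests, was the difference ± 0.42.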

How the data were processed

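Daphnia magna RNA from exposed and unexposed animals was measured on 24 2-colour arrays. The deposited values are log ratios, taken as log2, made by the authors. For the scanner, background subtraction, spot filters, normalization and base, the sources used here give nothing. Arrays of both sites held 7015 to 7472 values each. Precision is limited by the number of exposures. From every array its median was subtracted, and the dye-swap arrays were averaged per exposure. Features with values in at least 2 of 3 exposures at each of 4 sites were tested (7388, leaving out 292). All 12 exposures entered one limma fit (limma 3.58.1, R 4.3.3; 8 residual and 1.79 prior degrees of freedom). Downstream 2 minus upstream was tested by a contrast with Benjamini-Hochberg adjustment over all tested features, at 0.05.

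Separate cultures, or a control RNA common to several exposures, are not mentioned in the labels, and the exposures of a site carry one source label. The p-values thus measure only how these exposures vary, which may be technical. Exposure numbers were taken as pairs because the deviations of same-numbered exposures from their site means correlated above 0.1 in all 3 pairs (0.434, 0.474 and 0.248). This comes from the data, not from the labels.

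The rule names, among features past the threshold without overlap, the 8 largest differences in each direction, up to 10 that pass without each exposure in turn, up to 3 of lowest p that lie away from control upstream or have opposite signs, and the 2 largest in each direction that did not pass. The members and the rules were chosen with earlier results of these data known. Alternatives covered pairing, scaling, centring, weights, prior, dye orientation, filters and each exposure left out. The steps were tested on simulated data with independent noise in each exposure. Exposures that deviate together by number were not simulated. Planned gene lists were not run because no ID was paired with a gene. Python 3.11.15 and matplotlib 3.10.9 made the figures.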

Additional observations from a re-analysis of the deposited data

How the results depend on the processing

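The 97 features (40 positive, 57 negative) became 25 (17 and 8) with both sites fitted alone, 0 (0 and 0) with the number as a fixed replicate block as well, 411 (144 and 267) with all 24 arrays, 55 (22 and 33) with scaled arrays, 32 (16 and 16) after weighting arrays, 157 (60 and 97) from the arrays with Cy5 on the exposed RNA and 39 (15 and 24) from those with Cy3. The fit of all 24 arrays took single arrays as observations, with the exposure as a random block. Both arrays of an exposure carry the same RNA pair, so they are not separate exposures. Without 1 exposure the total ranged from 11 to 60, positive features from 2 to 26 and negative ones from 8 to 34. With the random replicate block 88 passed, with the 12-exposure replicate block 100, and without centring 96. The robust prior gave 90, requiring both arrays of an exposure 122, values in all 3 exposures 114 and a filter on both sites alone 96. Several of these settings leave the difference of a complete feature as it is and change only its error or the features tested. Without 1 exposure or with weighted arrays the sign could not change, since the exposures of both sites did not overlap for any of the 97. With scaled or uncentred arrays or 1 orientation the 97 kept it where they had a value. They were chosen for their difference on these same arrays, so the kept sign describes the choice and is no check of it. Of the 24 named features that passed, 10 still passed with scaled arrays and 15 with array weights.

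The response size per exposure, 0.0947 higher at downstream 2, stayed positive in the other settings (0.00501 as a median absolute value, 0.0689 and 0.062 with Cy5 or Cy3 alone, 0.102 over features with a value on all 12 arrays), and ranged from -0.0109 (without upstream exposure 3, where it reversed) to 0.168 without 1 exposure. Paired by number with the replicate block it was 0.0947 (exact p 0.25). No p could go below 0.1 unpaired. The causes of these changes were not tested. Fits with fewer exposures also had fewer degrees of freedom, and the part this played was not tested either. Signal over background is not analysed here.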
